A study of Mus musculus and Rattus norvegicus with 51 samples.

Results

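The 10 genes described here form a set of growth arrest genes and targets of the transcription factor p53: Cdkn1a, Mdm2, Gdf15, Plk2, Btg2, Sesn1, Sesn2, Ccng1, Phlda3 and Zmat3. They were taken as a listed set, with earlier results of these data known. All 10 were present in each of the 3 deposited count tables, among 17327 genes in rat cells, 24421 in livers at fibrosis or resolution and 24982 in livers given CCl4 or MO. All 10 also passed the filter on low counts in every table, which left 10140, 13487 and 14129 genes. In the cells, Gdf15 passed it through the [SO3] libraries alone.

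p53 is held at a low level in unstressed cells because the ubiquitin ligase Mdm2 marks it for degradation. After DNA damage or other stress it accumulates, binds DNA as a tetramer and raises transcription of genes that halt the cell cycle, repair DNA, restrain growth signals or start apoptosis, and Mdm2 itself is among those genes, which closes a feedback loop. In liver this response is known from toxic injury, regeneration and the senescence of activated stellate cells. Several of these genes also respond to other factors, such as the stress factor ATF4 for Gdf15 and Sesn2, so their levels are not a readout of p53 alone.

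The study sequenced RNA from HSC-T6 cells and whole mouse liver to compare forms of HMGB1, a nuclear DNA-binding protein that acts as an alarm signal outside the cell. HSC-T6 is a line of rat hepatic stellate cells, the cells that deposit scar matrix in liver, and it was treated for 6 hours with the form written [SO3], [O] or [H] HMGB1, or with BSA as control (3 libraries each). Fibrotic livers came from WT mice given CCl4, a hepatotoxin, for 4 weeks together with [O] HMGB1, [H] HMGB1 or BSA, and resolving livers came from WT mice 1 week into regression with [SO3] HMGB1, an HMGB1 antibody or BSA (3 libraries each). The other livers came from mice given CCl4 (4 libraries) or MO (3 libraries) for 4 weeks in each of 3 genotypes: Hmgb1ΔHepΔMye with Δ[O] HMGB1, Hmgb1ΔHepΔMye with WT HMGB1, and WT. Every mouse was labelled male, ages were not given, and the labels spell out neither the bracketed forms nor MO. The table of the CCl4 and MO livers was deposited under a name that holds AAV8, and the labels do not say what it carried or which mice received it. The cells are a single line. Whether libraries of a group came from different cultures or mice is not stated, so each p-value speaks of the variation among these libraries alone, and that variation may be technical.

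Libraries held 11752661 to 16981255 counts on genes in the cells, 8355714 to 16327132 counts in livers at fibrosis or resolution, and 22598631 to 39323123 counts in livers given CCl4 or MO. The cells carried stellate cell markers at a summed 43482 to 63685 CPM (counts-per-million, with library sizes scaled by TMM factors) and hepatocyte markers at a summed 0.306 to 2.23 CPM, with lymphocyte and neutrophil markers at or near 0. All liver libraries carried hepatocyte markers at 16142 CPM or more. Hmgb1 itself gave 61.7 to 92.3 CPM in livers of the knockout with Δ[O] HMGB1 under CCl4, 131 to 215 CPM in the same genotype under MO, 44.9 to 74.1 and 63.9 to 74.7 CPM in the knockout with WT HMGB1 under CCl4 and MO, and 57.2 to 107 and 72.8 to 77.3 CPM in WT under CCl4 and MO. Because HMGB1 was supplied to every knockout liver, this level does not check the deletion. In the fibrosis and resolution livers, BSA fibrotic library 2 was the highest of 18 libraries for 6 of the 10 genes, and [H] fibrotic library 2 stood apart for Cdkn1a and Btg2, so results that rest on them are given with and without them.

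Among the genes that act on the cell cycle, Cdkn1a encodes p21, an inhibitor of cyclin-dependent kinases, and lies at chr17:29090979-29100722 of the mouse build GRCm38.p6. Btg2 (chr1:134074865-134079155) encodes an antiproliferative protein that recruits mRNA deadenylation, Plk2 (chr13:110395044-110400844) a polo-like kinase, and Ccng1 (chr11:40748552-40755309) a cyclin that works with Mdm2. Mdm2 (chr10:117688875-117710758) is the feedback inhibitor of p53. Gdf15 (chr8:70629393-70632470) encodes a secreted stress cytokine. Sesn1 (chr10:41810574-41908436) and Sesn2 (chr4:132492804-132510456) encode sestrins, which restrain mTORC1 and oxidative damage. Phlda3 (chr1:135766085-135769134) encodes an inhibitor of AKT, and Zmat3 (chr3:32334792-32365665) an RNA-binding zinc finger protein. All 10 are annotated as protein-coding.

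Mouse promoter windows from RefSeq (GRCm38.p6), each 250 bases before to 50 bases after an annotated start, were at hand for 9 of the 10 genes in 12 windows. They were searched on both strands for 5 motifs: the p53 half-site by name, the CRE TGACGTCA, the AP-1 site TGANTCA, the ARE core TGACNNNGC and the CEBP-ATF site TGATGNAAT. The p53 half-site was found in 4 of the 12 windows, those of Cdkn1a, Mdm2, Ccng1 and Sesn1, against 8.36% of all 32851 windows. The CRE was found in 2 windows, those of Btg2 and Plk2, against 1.79% of all windows. The ARE core was in 2 windows, of Sesn2 and of a second Cdkn1a start, against 12.4% of all windows. The AP-1 site and the CEBP-ATF site were in 0 of the 12, against 7.81% and 0.965% of all windows. Below, the Cdkn1a window at chr17:29090729-29091028 (plus strand) and the Mdm2 window at chr10:117710709-117711008 (minus strand) are shown. Both hold a half-site, and these 2 genes rose in the cells mainly with [SO3] HMGB1. The Btg2 window at chr1:134079106-134079405 (minus strand) and the Plk2 window at chr13:110394794-110395093 (plus strand) are shown because these 2 rose most of the 10 with [O] HMGB1. Both were higher still with [SO3] HMGB1 (mean 199 against 59.1 CPM for Btg2, 300 against 275 CPM for Plk2). The half-site was also in the window of Ccng1, which rose with [SO3] HMGB1, and in a window of Sesn1, which fell. It was not in those of Gdf15, Phlda3, Btg2, Plk2 and Sesn2, which all rose with [SO3] HMGB1. Whether a motif bears on these changes was not tested. Each is printed 5′ to 3′ with capitals on p53 half-sites (Cdkn1a, Mdm2) or the CRE (Btg2, Plk2).
Cdkn1a: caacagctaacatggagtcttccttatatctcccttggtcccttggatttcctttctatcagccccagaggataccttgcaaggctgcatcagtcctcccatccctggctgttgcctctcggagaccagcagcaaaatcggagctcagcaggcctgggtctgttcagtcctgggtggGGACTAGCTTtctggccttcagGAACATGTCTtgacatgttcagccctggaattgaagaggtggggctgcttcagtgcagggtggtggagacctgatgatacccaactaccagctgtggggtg
Mdm2: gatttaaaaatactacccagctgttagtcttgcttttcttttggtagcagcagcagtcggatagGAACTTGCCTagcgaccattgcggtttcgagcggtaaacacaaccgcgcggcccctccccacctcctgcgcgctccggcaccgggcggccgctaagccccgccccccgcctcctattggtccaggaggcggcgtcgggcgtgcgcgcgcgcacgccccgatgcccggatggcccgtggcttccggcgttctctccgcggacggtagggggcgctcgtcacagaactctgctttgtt
Btg2: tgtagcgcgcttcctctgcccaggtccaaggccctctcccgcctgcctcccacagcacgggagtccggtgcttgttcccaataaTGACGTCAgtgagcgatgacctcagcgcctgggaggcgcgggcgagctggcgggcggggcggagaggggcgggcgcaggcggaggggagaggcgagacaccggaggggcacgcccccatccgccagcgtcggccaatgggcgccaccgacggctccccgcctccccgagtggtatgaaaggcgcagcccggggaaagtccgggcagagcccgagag
Plk2: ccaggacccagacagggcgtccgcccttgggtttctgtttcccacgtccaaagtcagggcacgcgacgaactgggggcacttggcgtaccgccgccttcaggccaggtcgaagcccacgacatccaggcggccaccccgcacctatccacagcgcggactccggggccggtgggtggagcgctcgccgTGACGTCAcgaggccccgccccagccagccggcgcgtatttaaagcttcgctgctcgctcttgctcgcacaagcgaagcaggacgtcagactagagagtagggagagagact
The 2 Cdkn1a half-sites began 73 and 51 bases before the annotated start, the Mdm2 half-site 186 bases before it, and the CRE of Btg2 and of Plk2 166 and 62 bases before it. These are mouse letters, whereas the cells are rat. A match describes the letters only.

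In HSC-T6 cells, the first question was how [SO3] HMGB1 acted on these genes relative to BSA. After 6 hours with [SO3] HMGB1, 9 of the 10 rose, against 31.1% of all tested genes that rose, and Sesn1 fell, against 32.2% of all tested genes that fell (edgeR quasi-likelihood test with Benjamini-Hochberg adjustment, called at an adjusted p under 0.05). Gdf15 could only differ here, since it passed the filter through the [SO3] libraries, and without it 8 of 9 rose and 1 fell, with a median log2 fold change of 1.38. The median of all tested genes was -0.02. In all, 6420 of 10140 tested genes passed this test.

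Of the cell cycle genes, Cdkn1a stood at 1063, 1040.3 and 993 CPM in the [SO3] libraries, against 190.3, 194 and 182 CPM in the BSA libraries. The 3 [SO3] libraries were all above the 3 BSA libraries, and the log2 fold change was 2.45 ± 0.04 (SE, adjusted p = 1.12e-24, edgeR). Btg2 had 200.3, 195 and 201 CPM with [SO3] HMGB1, against 18.4, 20.1 and 16.8 CPM with BSA. This was a 10.7-fold difference (log2 3.43 ± 0.06, edgeR adjusted p = 7.58e-24). Plk2 had 293, 296 and 313 CPM with [SO3] HMGB1 and 58.5, 56.6 and 64.1 CPM with BSA, a log2 fold change of 2.33 ± 0.05 (edgeR adjusted p = 4.18e-22). Ccng1 gave 653, 646 and 628 CPM with [SO3] HMGB1, against 221, 248 and 272 CPM with BSA, and rose by 1.38 ± 0.05 on the log2 scale (edgeR adjusted p = 8.37e-16). None of these 4 genes had overlapping groups. The share of all tested genes without overlap is not given, so a lack of overlap adds no support to a call, here or below.

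Mdm2, the brake on p53, stood at 536, 530.0 and 523 CPM in [SO3] libraries, against 122, 128 and 134 CPM in BSA libraries, a 4.15-fold rise (log2 2.05 ± 0.05, edgeR adjusted p = 7.80e-22). Gdf15 was almost silent outside the [SO3] group. It had 437, 466 and 439 counts in the [SO3] libraries, against 0, 2 and 1 counts in the BSA libraries. The ratio of the summed counts per depth was 356, with an exact 95% interval of 121 to 1727 that covers counting error only, and the fitted log2 fold change of 8.33 depends on the prior count. The [O] libraries held 6, 1 and 3 Gdf15 counts and the [H] libraries 2, 2 and 4.

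The remaining genes moved less. Sesn2 had 228, 236 and 248 CPM with [SO3] HMGB1 and 157, 154 and 138 CPM with BSA (log2 0.66 ± 0.05, edgeR adjusted p = 1.83e-11). Phlda3 had 410.1, 433 and 392 CPM with [SO3] HMGB1 and 213, 239.8 and 241 CPM with BSA (log2 0.83 ± 0.08, edgeR adjusted p = 8.62e-07). Zmat3 had 95.6, 92.5 and 100.04 CPM with [SO3] HMGB1 and 55.1, 56.4 and 53.3 CPM with BSA (log2 0.80 ± 0.05, edgeR adjusted p = 2.72e-13). The [SO3] libraries lay above the BSA libraries for each of these 3. Sesn1 went the other way, with 12.6, 13.7 and 12.1 CPM in the [SO3] libraries, below 17.8, 18.2 and 14.5 CPM in the BSA libraries (log2 fold change -0.41 ± 0.10, edgeR adjusted p = 0.00136). The 2 sestrins thus passed the test in opposite directions.

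**Figure D1:**
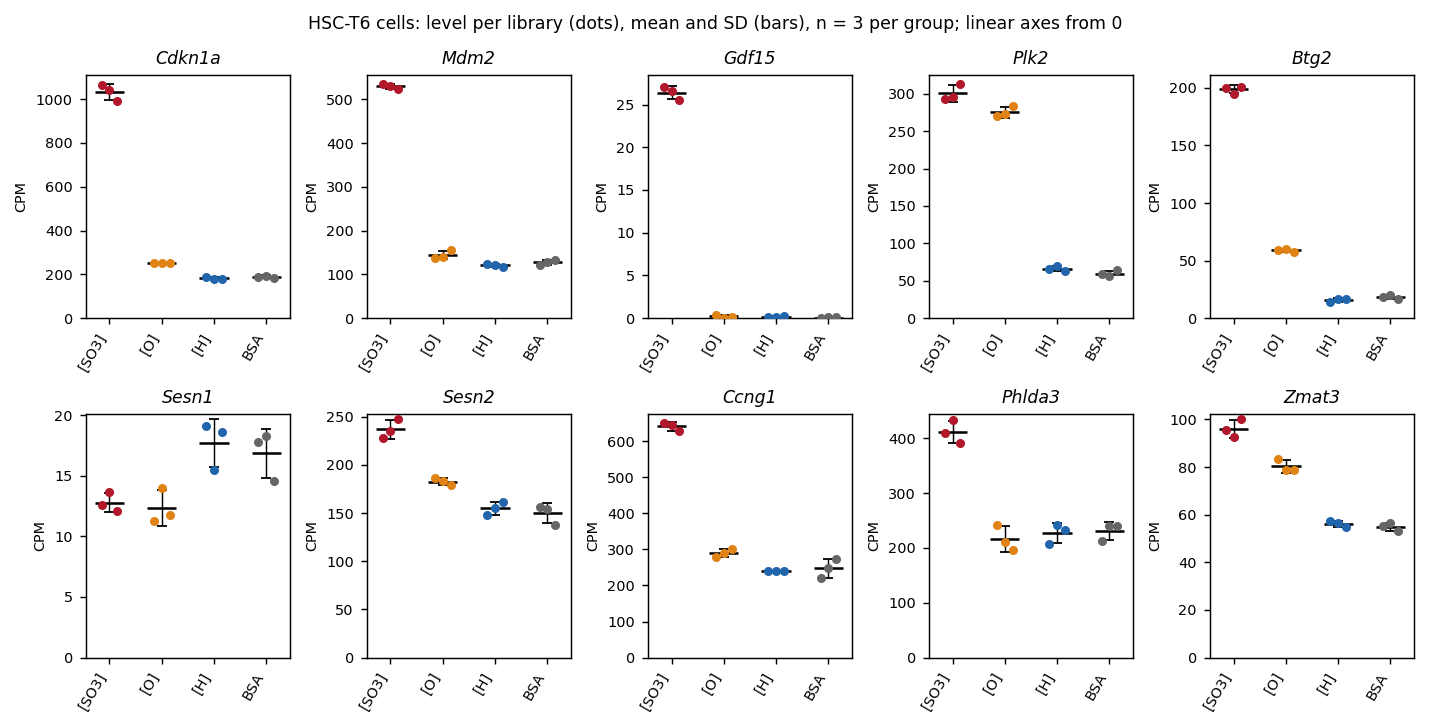
Level of each gene in counts-per-million (CPM, linear axes from 0) in every HSC-T6 library (dots) with the group mean and SD (bars, n = 3), for [SO3], [O] and [H] HMGB1 and BSA. Cdkn1a, Mdm2, Gdf15, Ccng1 and Phlda3 stand high in the [SO3] libraries, while Plk2 stands near 300 CPM in both the [SO3] and the [O] libraries, with 312.8 CPM its highest value.

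With [O] HMGB1, 7 of the 10 genes rose against BSA, where 23.7% of all tested genes rose, and Sesn1 fell, where 20.2% of all fell. The 2 with large changes were Plk2, a polo-like kinase, and Btg2. Plk2 had 269.6, 272 and 283 CPM in the [O] libraries, against 58.5, 56.6 and 64.1 CPM in the BSA libraries (log2 2.21 ± 0.05, edgeR adjusted p = 8.68e-22). Btg2 had 59.5, 60.2 and 57.5 CPM with [O] HMGB1 and 18.4, 20.1 and 16.8 CPM with BSA (log2 1.68 ± 0.06, edgeR adjusted p = 5.60e-17). The other 5 rose by less than 0.6 on the log2 scale. Among them, Cdkn1a stood at 251, 253 and 252 CPM, against the BSA values above (log2 0.42 ± 0.04, edgeR adjusted p = 1.67e-09), Zmat3 changed by log2 0.55, Sesn2 by 0.29, Ccng1 by 0.23 and Mdm2 by 0.18. Sesn1 had 11.3, 14.0 and 11.8 CPM with [O] HMGB1, all below the BSA libraries (log2 fold change -0.46 ± 0.10, edgeR adjusted p = 0.000883).

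Neither Gdf15 nor Phlda3 passed the test with [O] HMGB1. Phlda3, the AKT inhibitor, had 242, 211 and 196 CPM in the [O] libraries, overlapping the BSA libraries, and the 95% interval of its log2 fold change ran from -0.25 to 0.06. For Gdf15 that interval was wide, from -0.13 to 2.95, at 10 counts in all with [O] HMGB1 against 3 with BSA. Leaving out [O] library 1 brought Phlda3 to an edgeR adjusted p of 0.0337 in the same direction.

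[H] HMGB1 gave 0 calls among the 10 genes, with 81 genes or 0.799% of all tested genes called by edgeR. At an unadjusted p under 0.05, 2 of the 10 and 1713 of all genes (16.9%) passed, and DESeq2 called 0 of the 10 and 140 of all genes. DESeq2 gave 1 of the 10 no adjusted p here, so that gene could not be called. Cdkn1a had 188, 181 and 180.0 CPM with [H] HMGB1, within or close to its BSA values, and the 95% interval of its log2 fold change was -0.12 to 0.03. Plk2 had 66.0, 70.2 and 63.0 CPM with [H] HMGB1 (log2 0.15, interval 0.05 to 0.26, edgeR adjusted p = 0.161), and Btg2 had 14.0, 16.9 and 16.4 CPM (log2 -0.23, interval -0.38 to -0.07, edgeR adjusted p = 0.161). For each of these 3 genes the whole interval lay below those with [O] and with [SO3] HMGB1.

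**Figure D2:**
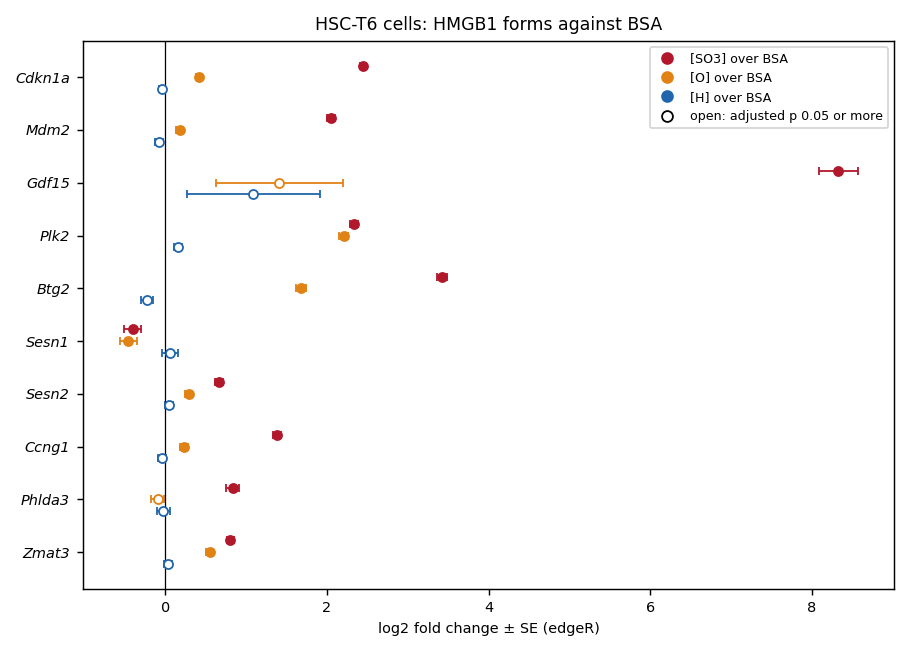
Log2 fold change against BSA with its SE (edgeR) for each gene in HSC-T6 cells, for [SO3], [O] and [H] HMGB1 from top to bottom within a gene, with open circles at an adjusted p of 0.05 or more. Plk2 lies at 2.33 with [SO3] and 2.21 with [O] HMGB1, whereas Cdkn1a lies at 2.45 and 0.42.

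The forms were then compared directly. [SO3] against [O] HMGB1 gave higher levels for 9 of the 10 genes, 8 of 9 without Gdf15, where 29.1% of all tested genes were higher. The log2 differences were 2.03 ± 0.04 for Cdkn1a, 1.88 ± 0.04 for Mdm2, 1.75 ± 0.05 for Btg2, 1.15 ± 0.05 for Ccng1 and 0.93 ± 0.08 for Phlda3. Plk2 differed by only 0.13 ± 0.04 (edgeR adjusted p = 0.0175), and this call was lost when [O] library 1, [O] library 2 or [SO3] library 3 was left out (highest adjusted p 0.0752). Sesn1 did not pass (log2 0.05, 95% interval -0.15 to 0.26). The 95% interval of the Plk2 difference was 0.04 to 0.22, against 1.96 to 2.11 for Cdkn1a. Sesn2 and Zmat3 differed by 0.38 and 0.26, and Gdf15 had a ratio of summed counts per depth of 125 (exact 95% interval 68.0 to 262, counting error only).

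Against [H] HMGB1, [SO3] HMGB1 gave 9 higher genes, 8 of 9 without Gdf15, where 31.5% of all were higher, and 1 lower, Sesn1, where 31.9% were lower. [O] against [H] HMGB1 gave 7 higher genes, where 21.9% were higher, and again Sesn1 lower, where 19.0% were lower. The largest of the 7 were Plk2 (log2 2.05) and Btg2 (log2 1.90), and Gdf15 and Phlda3 did not pass. These 2 comparisons share samples with those against BSA.

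The order of mean levels for Cdkn1a was 1032 ± 35.5 CPM with [SO3] HMGB1, 252 ± 0.820 with [O] HMGB1, 183 ± 4.43 with [H] HMGB1 and 189 ± 6.43 with BSA (SD, n = 3), and only [H] HMGB1 and BSA did not differ beyond their spread. By root mean square difference of centred log2 CPM over the 12 libraries, the 5 genes nearest to Cdkn1a were Srxn1 (0.10), Enc1 (0.14), Zfand2a (0.16), Mdm2 (0.17) and Mt1a (0.18). Of the 10 genes, Mdm2 was thus the only one among the nearest 5, and Ccng1 came at rank 48 of 10139. Sesn1 (rank 8159) and Gdf15 (rank 10096) were far from Cdkn1a by this measure, which also counts the size of a change. Sesn1 fell with [SO3] HMGB1, whereas Gdf15 rose, by more than Cdkn1a did.

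Other p53 genes in the cells were counted from fixed lists. Of all tested genes, 31.1% rose and 32.2% fell with [SO3] HMGB1, and 23.7% rose and 20.2% fell with [O] HMGB1. These shares apply to every list of the cells below, and a count near them does not set a list apart from other genes. Of 9 tested p53 targets in apoptosis, 7 rose and 0 fell with [SO3] HMGB1, with a median log2 fold change of 1.05. Among them Aen, an exonuclease gene, stood at 124 against 39.6 CPM with BSA (log2 1.64 ± 0.05, edgeR adjusted p = 1.78e-18). With [O] HMGB1, 8 of the 9 rose and 1 fell. The death receptor gene Fas rose by log2 2.51 ± 0.05 with [O] HMGB1, and Pmaip1, which encodes the BH3-only protein NOXA, fell by 0.43 on the log2 scale. Of 7 regulators of the pathway, 2 rose and 2 fell with [SO3] HMGB1, and the damage checkpoint kinase gene Chek2 led the lower ones (log2 -1.01 ± 0.11). With [O] HMGB1, 3 regulators rose and 4 fell, the lower ones led by Chek1, another checkpoint kinase gene (log2 -0.50).

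Repair and metabolism targets were mixed. For scale, 31.1% of all tested genes rose and 32.2% fell with [SO3] HMGB1, and 23.7% rose and 20.2% fell with [O] HMGB1. With [SO3] HMGB1, 6 of 14 rose and 4 fell, led by Tigar, a regulator of glycolysis (log2 1.27), and by Psrc1, a spindle protein gene (log2 -1.29). With [O] HMGB1, 5 rose and 4 fell, led by the glutaminase gene Gls2 (log2 1.07) and the sestrin gene Sesn3 (log2 -1.45). Of 13 other growth arrest genes and kinase inhibitors, 6 rose and 4 fell with [SO3] HMGB1 and 7 rose and 3 fell with [O] HMGB1. In both, Gadd45g led the higher ones (log2 1.34 and 1.18) and Cdkn2c, which encodes the CDK4 and CDK6 inhibitor p18, the lower ones (log2 -1.12 and -0.75).

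Among 17 proliferation genes, 13 fell and 2 rose with [SO3] HMGB1, led by the mitotic kinase gene Plk1 (31.4 against 89.1 CPM with BSA, log2 -1.51) and by the replication clamp gene Pcna (log2 0.37). With [O] HMGB1, 14 fell and 0 rose, with a median of -0.22 on the log2 scale, against -0.78 with [SO3] HMGB1. Of 11 targets of ATF4, which can also raise Gdf15 and Sesn2, 6 rose and 3 fell with each of the 2 forms. Atf3, a stress-induced transcription factor gene, led both (log2 3.73 with [SO3] and 2.14 with [O] HMGB1), and the serine synthesis gene Psat1 was lower with [SO3] HMGB1 (log2 -0.31). Stellate cell markers summed to 43482 to 46620 CPM in the [SO3] libraries, against 60246 to 63685 CPM in the BSA libraries, and their part in these results was not tested. With [H] HMGB1, 1 gene of these 6 lists was called, where 0.799% of all tested genes were called. This was the proliferation gene Mki67, which was higher.

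In the livers, a difference may come from fewer cells of a type or from less RNA per cell, and bulk counts cannot tell these apart. At fibrosis, the 10 genes were compared between HMGB1 forms and BSA. 0 of the 10 were called for [H] HMGB1 against BSA, for [O] HMGB1 against BSA, or for [O] against [H] HMGB1, and edgeR called 0 of all genes (0%) in each. At an unadjusted p under 0.05, 1448, 727 and 1413 of all genes and 4, 2 and 1 of the 10 passed, and DESeq2 called 2, 6 and 274 of all genes and 0 of the 10. In each of these comparisons DESeq2 gave 1 of the 10 no adjusted p, so that gene could not be called.

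The spread between fibrotic livers was large. Mdm2 had 336 CPM in BSA fibrotic library 2, against 50.6 and 49.4 CPM in BSA fibrotic libraries 1 and 3. Gdf15 had 262 CPM there, against 16.8 and 11.6 CPM, and Btg2 498 CPM, against 55.3 and 48.5 CPM. This 1 library was thus 6.73, 18.5 and 9.59 times the mean of its group's other libraries for Mdm2, Gdf15 and Btg2, and 3.13 times for Cdkn1a. It was not high for every gene: Ccng1 had 36.9 CPM in it, against 74.4 and 87.6 CPM in the others, and Phlda3 4.43 CPM, against 6.91 and 21.04 CPM. Its cholangiocyte markers summed to 539 CPM, against 16.2 to 109 CPM in the other 17 libraries, and their part in its levels was not tested.

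In [H] fibrotic livers, Cdkn1a had 69.8, 231 and 33.8 CPM and Btg2 49.3, 395 and 84.2 CPM, so library 2 stood 4.46 and 5.91 times above the mean of the others. [O] fibrotic livers had 148, 175 and 47.2 CPM of Cdkn1a and 73.5, 99.7 and 42.9 CPM of Btg2. BSA fibrotic livers had 108, 272 and 66.0 CPM of Cdkn1a. The 3 groups overlapped for both genes. Without BSA library 2 and [H] library 2, an exclusion chosen after seeing the data, 0 of the 10 were called in each of the 3 comparisons as well, and the Mdm2 log2 difference for [H] against BSA became -0.39 instead of -1.74. Without BSA library 2 alone, the fitted differences of [H] against BSA turned round for Cdkn1a (log2 0.34 instead of -0.41) and Btg2 (log2 1.74 instead of -0.19), and neither passed the test in either fit.

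In resolving livers, [SO3] HMGB1 and the antibody were each compared with BSA and with each other. Cdkn1a had 4.94, 24.3 and 2.96 CPM with [SO3] HMGB1, 54.5, 22.4 and 17.6 CPM with the antibody, and 17.8, 18.5 and 9.54 CPM with BSA. 0 of the 10 were called for [SO3] HMGB1 against BSA, the antibody against BSA, or [SO3] HMGB1 against the antibody, with 0 of all genes called by edgeR (0%). At an unadjusted p under 0.05, 812, 279 and 516 of all genes passed, and DESeq2 called 80, 3 and 35 of all genes and 0 of the 10. DESeq2 again gave 1 of the 10 no adjusted p in each comparison. Btg2 lay above BSA in every library of the other 2 groups, at 51.0, 38.0 and 37.6 CPM with [SO3] HMGB1 and 79.0, 43.9 and 31.7 CPM with the antibody, against 21.6, 21.9 and 23.3 CPM with BSA. Its fitted changes were log2 0.92 ± 0.81 and 1.21 ± 0.81, far from the threshold in the fit over all groups (adjusted p = 1 for both, edgeR). With a fit on the [SO3] and BSA resolving groups alone, Btg2 reached an adjusted p of 0.0479. Plk2 was lower in every [SO3] library, at 11.6, 8.39 and 11.8 CPM, against 18.1, 15.3 and 14.7 CPM with BSA (log2 -0.59, 95% interval -1.22 to 0.04).

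Resolving livers with BSA were then set against fibrotic livers with BSA, which asks how the genes stood after CCl4 was stopped. 6 of the 10 fell, where 6.60% of all tested genes fell: Cdkn1a, Btg2, Mdm2, Gdf15, Phlda3 and Zmat3. Zmat3 had 13.8, 14.7 and 15.6 CPM in resolving livers, against 29.7, 34.0 and 31.6 CPM in fibrotic livers (log2 -1.12 ± 0.21, edgeR adjusted p = 0.0138). Phlda3 had 2.74, 1.47 and 1.63 CPM in resolving livers and 6.91, 4.43 and 21.04 CPM in fibrotic livers (log2 -2.45 ± 0.57, edgeR adjusted p = 0.0230). Both were separated in every library. Mdm2 had 30.3, 32.5 and 29.6 CPM in resolving livers, against 50.6, 336 and 49.4 CPM in fibrotic livers (log2 -2.24 ± 0.53, edgeR adjusted p = 0.0242).

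Gdf15 had 9.52, 9.16 and 5.14 CPM in resolving livers, below 16.8, 262 and 11.6 CPM in fibrotic livers (log2 -3.59 ± 0.88, edgeR adjusted p = 0.0271). For Cdkn1a and Btg2 the log2 changes were -3.27 ± 0.87 and -3.17 ± 0.86 (edgeR adjusted p = 0.0357 and 0.0372). Without BSA fibrotic library 2, only Mdm2, Phlda3 and Zmat3 were called (3 of 10, and 634 instead of 1214 of all genes). The changes then were -0.69 for Mdm2 and -0.82 for Gdf15, in place of -2.24 and -3.59, -2.49 for Cdkn1a and -1.22 for Btg2, and -2.82 for Phlda3 and -1.06 for Zmat3. Leaving out BSA resolving library 1, 2 or 3 left 2, 0 and 1 of all genes called and 0 of the 10 (adjusted p for Zmat3 up to 0.0897), and leaving out BSA fibrotic library 3 ended the call of Phlda3 (adjusted p = 0.0599).

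Summed markers of several cell types did not overlap between the same groups. Stellate cell markers summed to 164 to 256 CPM in resolving livers, against 278 to 1105 CPM in fibrotic livers, and cholangiocyte markers to 16.2 to 23.1 CPM, against 42.2 to 539 CPM. Mesothelium markers summed to 2.72 to 6.64 CPM, against 17.1 to 68.1 CPM, and neutrophil markers to 33.9 to 45.6 CPM, against 52.7 to 181 CPM. The fibrotic library with the highest Phlda3 was also the one with the highest stellate sum. The part of these markers in the 6 results was not tested.

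Plk2, Sesn1, Sesn2 and Ccng1 did not pass. Sesn2 came closest, at 9.93, 16.1 and 18.4 CPM in resolving livers, against 26.5, 34.9 and 20.5 CPM in fibrotic livers (log2 -0.89 ± 0.30, edgeR adjusted p = 0.0685). Among the other lists, 13 of 17 proliferation genes and 7 of 12 ATF4 targets fell in the same comparison, and 0 rose. Of all tested genes, 6.60% fell, which applies to each list here. Examples were the spindle checkpoint gene Bub1, at 0.165 CPM in resolving livers against 5.32 CPM in fibrotic livers, and the cystine transporter gene Slc7a11, at 0.0517 against 25.7 CPM. Of 12 apoptosis targets 3 fell, led by the death receptor gene Tnfrsf10b (log2 -2.67). Of 16 repair and metabolism targets 4 fell, led by Psrc1 (log2 -4.58). Of 16 growth arrest genes 2 fell, led by Gadd45a (log2 -3.92), and of 9 regulators 1 fell, Chek1 (log2 -3.82). Over the 18 libraries, the 4 genes nearest to Cdkn1a were Mthfd2 (0.83), Emp1 (0.85), Dusp4 (0.86) and Tnfrsf10b (0.88), all at larger distances than the nearest 5 in the cells.

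**Figure D3:**
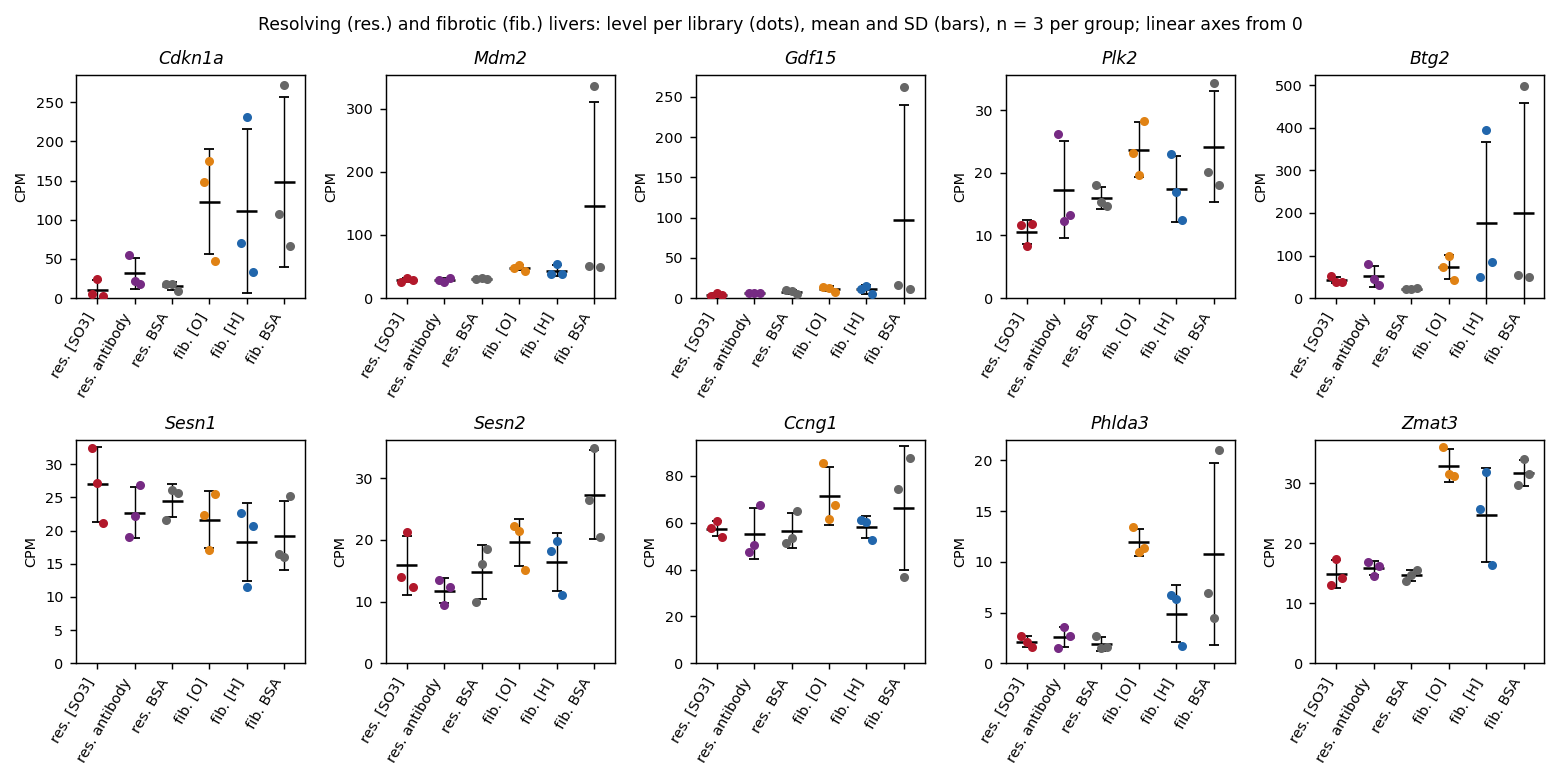
Level of each gene in counts-per-million (CPM, linear axes from 0) in every resolving and fibrotic liver library (dots) with the group mean and SD (bars, n = 3). For Mdm2 and Gdf15, 1 BSA fibrotic library at 336 and 262 CPM stands above all others, while Zmat3 separates the resolving from the fibrotic BSA livers without it.

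The CCl4 and MO livers asked how 4 weeks of CCl4 acted in each genotype. In WT livers, 6 of the 10 genes rose with CCl4 against MO, where 22.8% of all tested genes rose: Plk2, Ccng1, Mdm2, Gdf15, Phlda3 and Zmat3. Phlda3 had 4.18, 4.77, 6.84 and 4.93 CPM with CCl4, against 0.370, 0.820 and 1.94 CPM with MO (log2 2.32 ± 0.48, edgeR adjusted p = 0.000611). Plk2 had 18.3, 16.2, 15.7 and 15.3 CPM with CCl4 and 6.13, 5.96 and 8.04 CPM with MO (log2 1.28 ± 0.18, edgeR adjusted p = 9.50e-06). All CCl4 libraries lay above all MO libraries for both. Gdf15 had 10.4, 12.3, 15.5 and 13.4 CPM with CCl4 and 3.09, 5.08 and 5.45 CPM with MO (log2 1.51 ± 0.50, edgeR adjusted p = 0.0193), and lost its call without WT MO library 1 (adjusted p = 0.0876). Zmat3, Ccng1 and Mdm2 rose by 0.73 ± 0.17, 0.59 ± 0.14 and 0.44 ± 0.10 on the log2 scale.

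Cdkn1a, which encodes p21, was not among them. It had 62.6, 79.2, 80.1 and 171 CPM in WT CCl4 livers, against 91.1, 84.7 and 74.3 CPM in WT MO livers (log2 0.23, 95% interval -0.46 to 0.92, edgeR adjusted p = 0.617). WT CCl4 library 4 alone stood above the MO range. Btg2, Sesn1 and Sesn2 did not pass either. In the same WT livers, stellate cell markers summed to 261 to 552 CPM with CCl4, against 34.9 to 68.1 CPM with MO, and hepatocyte markers to 80766 to 119072 CPM, against 143526 to 164250 CPM. Neutrophil markers summed to 16.6 to 30.9 CPM with CCl4, against 10.3 to 14.0 CPM with MO. Cholangiocyte markers summed to 23.3 to 41.8 CPM, against 10.9 to 19.6 CPM, and lymphocyte markers to 2.29 to 3.96 CPM, against 1.09 to 1.99 CPM. Macrophage markers summed to 262 to 460.6 CPM with CCl4, against 460.9 to 504 CPM with MO. Their part in the 6 results was not tested.

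In livers of the knockout with WT HMGB1, 5 of the 10 rose with CCl4, where 23.3% of all rose. The labels number the CCl4 libraries of this genotype 1, 3, 4 and 5, and values are listed in that order. Cdkn1a had 25.6, 46.0, 32.5 and 30.0 CPM with CCl4, against 11.9, 12.5 and 23.0 CPM with MO (log2 1.08 ± 0.37, edgeR adjusted p = 0.0215). Phlda3 had 6.78, 10.4, 9.84 and 7.72 CPM with CCl4, against 3.51, 1.88 and 4.36 CPM with MO (log2 1.41 ± 0.41, edgeR adjusted p = 0.00925). For these 2 genes the CCl4 libraries lay above the MO libraries. Zmat3 (log2 0.67 ± 0.17), Sesn2 (log2 0.55 ± 0.19) and Mdm2 (log2 0.26 ± 0.10) rose as well. Leaving out 1 library ended the call of Cdkn1a (without MO library 1 or 2 or CCl4 library 3, highest adjusted p 0.0969), of Sesn2 (without MO library 1 or 2 or CCl4 library 4, 0.154), of Phlda3 (without MO library 2, 0.0571) and of Mdm2 (without MO library 1 or 2 or CCl4 library 3, 4 or 5, 0.161). Zmat3 was called in every such fit. Gdf15 just missed a call in the other direction, at 6.72, 6.39, 15.8 and 8.12 CPM with CCl4, against 14.7, 17.7 and 27.7 CPM with MO (log2 -1.12 ± 0.46, edgeR adjusted p = 0.0516). It was called lower by DESeq2 (adjusted p = 0.0297), with the replicate number as a block (0.0411), with only the groups compared (0.0246) and without CCl4 library 4 (0.0173), while the highest adjusted p over the libraries left out was 0.193. Btg2 had 27.7, 26.3, 25.2 and 24.3 CPM with CCl4, against 24.9, 23.7 and 62.2 CPM with MO (log2 -0.52, edgeR adjusted p = 0.121). It was called lower without MO library 1 or 2, but MO library 3 alone lay above the CCl4 range. Stellate cell markers summed to 1026 to 1563 CPM with CCl4 in this genotype, against 65.6 to 95.3 CPM with MO. Hepatocyte markers summed to 78149 to 88884 CPM, against 99111 to 143228 CPM, and neutrophil markers to 24.4 to 27.7 CPM, against 51.3 to 72.5 CPM. Macrophage markers summed to 416 to 493 CPM, against 234 to 375 CPM, and endothelium markers to 98.2 to 130 CPM, against 77.5 to 82.9 CPM. Their part in these results was not tested.

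In livers of the knockout with Δ[O] HMGB1, 1 of the 10 rose with CCl4, where 12.9% of all rose. This was Cdkn1a, with 19.9, 36.2, 40.1 and 15.2 CPM with CCl4, against 10.1, 13.2 and 15.5 CPM with MO (log2 1.11 ± 0.37, edgeR adjusted p = 0.0354). The labels number these CCl4 libraries 1, 2, 3 and 5, in the order listed. The groups overlapped, and the call was lost without MO library 1 or 2 or CCl4 library 2 or 3 (highest adjusted p 0.132). Btg2 had 28.2, 26.4, 30.5 and 29.4 CPM with CCl4, all above 14.6, 17.8 and 18.4 CPM with MO, and just missed the threshold (log2 0.76 ± 0.28, edgeR adjusted p = 0.0539). Stellate cell markers summed to 396 to 925 CPM with CCl4 here, against 54.6 to 99.4 CPM with MO. Hepatocyte markers summed to 90669 to 108889 CPM, against 116799 to 121281 CPM. Endothelium markers summed to 94.8 to 122 CPM, against 81.2 to 86.8 CPM, and cholangiocyte markers to 12.5 to 21.6 CPM, against 7.51 to 9.57 CPM. The part of these markers in the Cdkn1a result was not tested.

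The test of the difference between the 2 knockout responses called 0 of the 10 and 0 of all genes by edgeR (0%), with 3 of the 10 and 2098 of all genes at an unadjusted p under 0.05 and 86 genes by DESeq2. A CCl4 response that passed in 1 of these genotypes is therefore not shown to differ between them. Without knockout with WT HMGB1 MO library 3, 1119 genes and 2 of the 10 passed that test, Mdm2 and Zmat3 (adjusted p = 0.0468 and 0.0455). For the full set of libraries, the log2 differences of response, Δ[O] minus WT HMGB1, were -0.48 ± 0.15 for Mdm2 and -0.60 ± 0.23 for Zmat3 (edgeR adjusted p = 0.213 and 0.251).

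Within a treatment, Δ[O] against WT HMGB1 in the knockout gave 0 of 10 calls under CCl4, where 326 genes or 2.31% of all were called, and 0 of 10 under MO, where 0 genes were called (0%). At an unadjusted p under 0.05, 1 and 5 of the 10 and 2130 and 1549 of all genes passed, and DESeq2 called 576 and 22 of all genes. Under CCl4, the 95% intervals of the log2 differences ran from -0.91 to 0.38 for Cdkn1a and from -0.41 to -0.04 for Mdm2. Under MO, Btg2 had 14.6, 17.8 and 18.4 CPM with Δ[O] HMGB1, below 24.9, 23.7 and 62.2 CPM with WT HMGB1 (log2 -1.13 ± 0.29, edgeR adjusted p = 0.339). Without WT HMGB1 MO library 3, 823 genes passed under MO, and 1 of the 10, Plk2 (adjusted p = 0.0322).

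**Figure D4:**
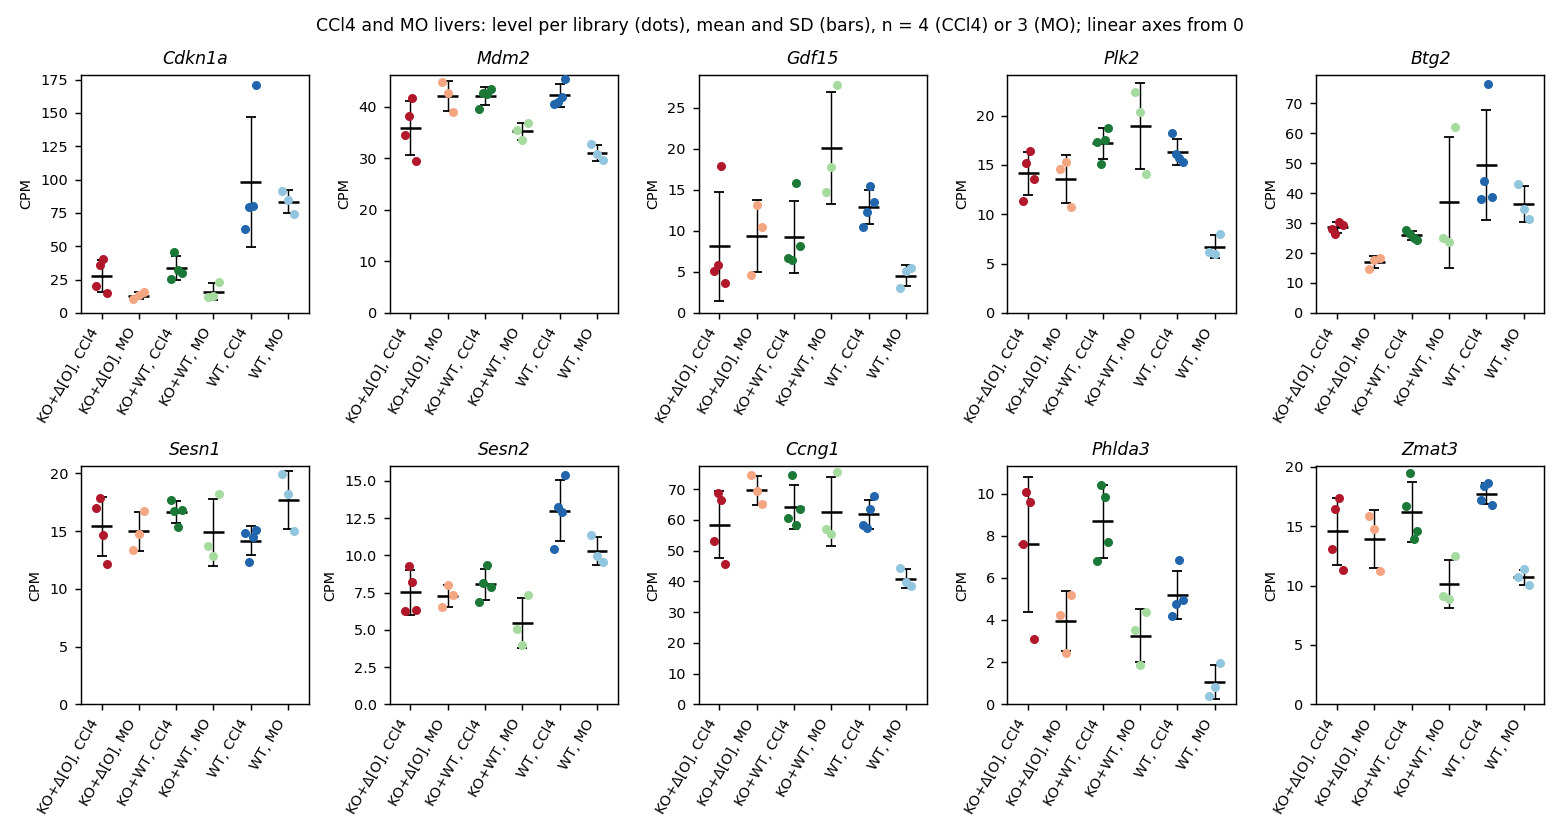
Level of each gene in counts-per-million (CPM, linear axes from 0) in every liver library of the knockout with Δ[O] HMGB1 (KO+Δ[O]), the knockout with WT HMGB1 (KO+WT) and WT, CCl4 left of MO (dots), with the group mean and SD (bars, n = 4 with CCl4, 3 with MO). Every knockout library is below every WT library of the same treatment for Cdkn1a and Sesn2, while Plk2 and Gdf15 are low in WT livers with MO.

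The knockout with WT HMGB1 was then compared with WT. These groups differ at once in the deletion and in the supplied HMGB1, and perhaps in having received AAV8. In every comparison of these knockout livers with WT, these factors cannot be told apart. Under MO, 2 of the 10 fell, where 11.5% of all tested genes fell, and 4 rose, where 12.7% rose. Cdkn1a fell to 11.9, 12.5 and 23.0 CPM in knockout livers, against 91.1, 84.7 and 74.3 CPM in WT livers (log2 -2.39 ± 0.40, edgeR adjusted p = 0.000278). Sesn2 fell to 5.05, 3.97 and 7.30 CPM in knockout livers, against 11.4, 9.94 and 9.56 CPM in WT livers (log2 -0.91 ± 0.21, edgeR adjusted p = 0.00309). Neither gene had overlapping groups. Gdf15 rose to 14.7, 17.7 and 27.7 CPM in knockout livers, against 3.09, 5.08 and 5.45 CPM in WT livers (log2 2.15 ± 0.53, edgeR adjusted p = 0.00641). Plk2 rose to 22.4, 20.3 and 14.0 CPM in knockout livers, against 6.13, 5.96 and 8.04 CPM in WT livers (log2 1.49 ± 0.18, edgeR adjusted p = 1.22e-05). Ccng1 (log2 0.62 ± 0.15) and Phlda3 (log2 1.66 ± 0.50) rose too, and the Phlda3 call was lost without WT library 1 or 2 or knockout library 3 (highest adjusted p 0.104). The 10 genes thus included calls in both directions. Neutrophil markers summed to 51.3 to 72.5 CPM in these knockout livers, against 10.3 to 14.0 CPM in WT livers, and lymphocyte markers to 4.10 to 4.63 CPM, against 1.09 to 1.99 CPM. Macrophage markers summed to 234 to 375 CPM, against 461 to 504 CPM, and hepatocyte markers to 99111 to 143228 CPM, against 143526 to 164250 CPM. Their part in these results was not tested.

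Under CCl4, 3 of the 10 fell in the knockout with WT HMGB1 against WT, where 13.0% of all fell, and 0 rose. Cdkn1a had 25.6, 46.0, 32.5 and 30.0 CPM in knockout livers, all below 62.6, 79.2, 80.1 and 171 CPM in WT livers (log2 -1.55 ± 0.33, edgeR adjusted p = 0.00199). Sesn2 had 6.84, 8.11, 9.37 and 7.84 CPM in knockout livers and 10.4, 13.2, 12.9 and 15.4 CPM in WT livers (log2 -0.69 ± 0.17, edgeR adjusted p = 0.00538). Btg2 had 27.7, 26.3, 25.2 and 24.3 CPM in knockout livers and 38.2, 44.1, 76.5 and 38.7 CPM in WT livers (log2 -0.93 ± 0.25, edgeR adjusted p = 0.00925). All 3 calls held whichever library was left out. Stellate cell markers summed to 1026 to 1563 CPM in these knockout livers, against 261 to 552 CPM in WT CCl4 livers. Hepatocyte markers summed to 78149 to 88884 CPM, against 80766 to 119072 CPM. Endothelium markers summed to 98.2 to 130 CPM, against 59.9 to 74.3 CPM, and cholangiocyte markers to 13.0 to 19.8 CPM, against 23.3 to 41.8 CPM. The part of these markers in the results was not tested.

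The CCl4 response itself differed between the knockout with WT HMGB1 and WT for 2 of the 10, both lower in the knockout, where 6.64% of all tested genes were lower. These were Gdf15 (log2 difference -2.63 ± 0.68, edgeR adjusted p = 0.0152) and Plk2 (-1.42 ± 0.24, edgeR adjusted p = 0.000794). Plk2 changed by log2 -0.14 with CCl4 in the knockout, against 1.28 in WT, and Gdf15 by -1.12, against 1.51. For both genes, 2 of the 3 MO libraries of the knockout stood above every CCl4 library of WT. The Gdf15 difference reached an adjusted p of 0.0528 without WT MO library 1. For Cdkn1a the difference of response was 0.85 with a 95% interval of -0.14 to 1.83.

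**Figure D5:**
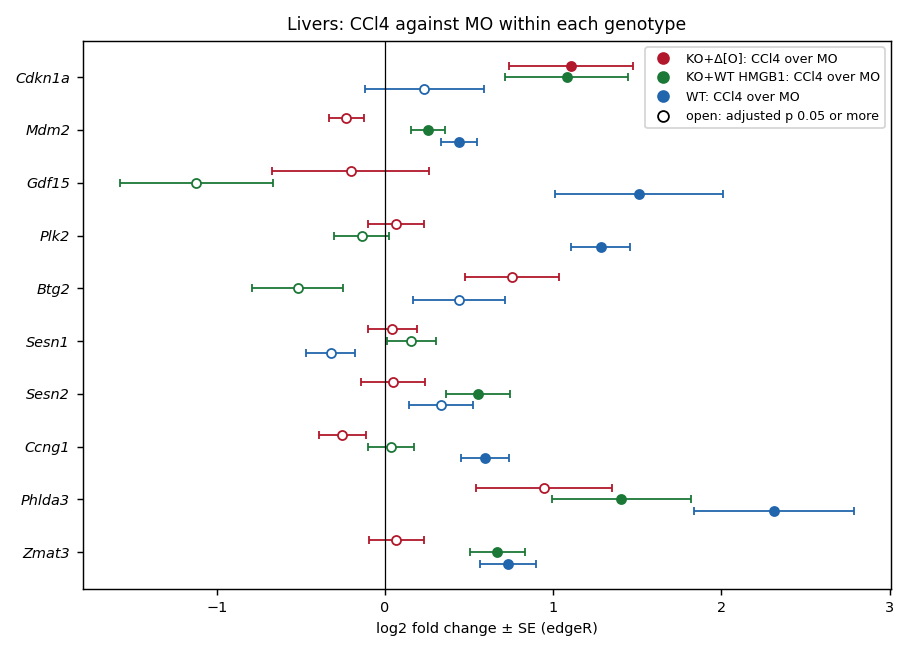
Log2 fold change of CCl4 over MO with its SE (edgeR) for each gene, in livers of the knockout with Δ[O] HMGB1 (KO+Δ[O]), the knockout with WT HMGB1 (KO+WT HMGB1) and WT, from top to bottom within a gene, with open circles at an adjusted p of 0.05 or more. Gdf15 lies at 1.51 in WT and at -0.20 and -1.12 in the 2 knockout groups, and Phlda3 lies above 0 in all 3.

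The other lists were counted in the same livers, where 12.9%, 23.3% and 22.8% of all tested genes rose and 11.4%, 24.0% and 23.5% fell with CCl4 in the knockout with Δ[O] HMGB1, the knockout with WT HMGB1 and WT. Proliferation genes rose with CCl4 in 16 of 17 in the knockout with Δ[O] HMGB1, 17 of 17 in the knockout with WT HMGB1 and 13 of 17 in WT, with median log2 changes of 3.29, 3.61 and 1.92. In the knockout with WT HMGB1 against WT under CCl4, 10 of the 17 were higher and 0 lower, where 15.8% of all tested genes were higher, led by the mitotic cyclin gene Ccnb2, while Cdkn1a and Btg2 were lower. Of 12 ATF4 targets, 4, 4 and 8 rose and 1, 3 and 0 fell with CCl4 in the 3 genotypes in that order. Under CCl4, 11 of the 12 were lower in the knockout with WT HMGB1 than in WT, where 13.0% of all tested genes were lower. Among them was Slc7a11 (1.61 against 14.6 CPM, log2 -3.17 ± 0.37). Of 12 apoptosis targets, 4, 6 and 6 rose and 2, 2 and 1 fell with CCl4 in the same order of genotypes. Tnfrsf10b rose by log2 1.71, 1.35 and 3.47, and Fas, a death receptor gene, was lower with CCl4 in each (log2 -0.61, -0.99 and -1.02).

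Of the 9 regulators, 3, 5 and 4 rose with CCl4 in the knockout with Δ[O] HMGB1, the knockout with WT HMGB1 and WT, led each time by Chek1 (log2 2.72, 3.20 and 3.28). Of 16 repair and metabolism targets, 1, 5 and 4 rose and 0, 3 and 6 fell with CCl4, with Eda2r, a receptor gene of the TNF family, at log2 -0.24, 1.17 and 3.99. Of 16 growth arrest genes, 3, 3 and 4 rose and 0, 4 and 4 fell. Gadd45a, a growth arrest gene that binds Pcna, changed by log2 -0.01, -0.30 and 3.07, and its response was lower in the knockout with WT HMGB1 than in WT (log2 difference -3.37 ± 0.50, edgeR adjusted p = 0.000345). Over the 21 libraries, the genes nearest to Cdkn1a were Cyp39a1 (0.43), Map3k6 (0.49), Tcim (0.57), Skida1 (0.58) and Rhobtb1 (0.59), and among the 10 genes Sesn2 came nearest, at rank 65 of 14128.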

How the data were processed

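Whole-number counts per gene were deposited by the authors in 3 tables, 1 for HSC-T6 cells and 2 for livers. Per the labels, libraries were stranded mRNA. The build mm10 is named in the submitters' processing notes, for the rat cells as well. Aligner, counter, annotation and the use of strand were not given in the sources used here, so values of overlapping, antisense or paralogous genes are uncertain. All 51 count columns matched a sample, and 0 had none. Rows of reads on no gene, 32.0% to 35.2% of gene counts in cells and 5.50% to 8.51% in the CCl4 and MO livers, and ambiguous reads were left out.

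Genes passed edgeR's expression filter (minimum count 10, minimum total 15). Counts were scaled by TMM and fitted with 1 robust quasi-likelihood model per table over all its groups (edgeR 4.0.16, limma 3.58.1, R 4.3.3). Calls used a Benjamini-Hochberg adjusted p under 0.05 over all genes of the table. CPM are counts-per-million, with library sizes scaled by TMM, and each SE is the log2 change divided by the root of its F statistic. Likeness to Cdkn1a used log2 CPM with a prior count of 2. Alternatives were DESeq2 1.42.0, its size factors, no filter, only the groups compared, the replicate number as a block, and leaving out each library. The scripts were tested on simulated data. Of the replicate pairs compared, 0 were identical, and the lowest chi-square per degree of freedom was 1.46. Intervals on counts cover counting error only.

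The members and lists were chosen with earlier results of these data known. Named genes were the members, the gene with the highest and lowest called change of each list, and the 5 genes nearest to Cdkn1a in each table; further genes named beside them were chosen after their values were seen. Some genes that this rule names are not reported here.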

Additional observations from a re-analysis of the deposited data

Results flagged for a closer look

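Each of the 10 genes was examined in each group of 4 liver libraries, 30 cases in all. In 3 of them, 1 library lay far from the others (its gap to the nearest, divided by the range, was above Dixon's 95% critical value for 4 samples). Chance gives about 1 such case in 20, and the 30 cases share libraries. Cdkn1a had 171 CPM in WT CCl4 library 4, against 62.6 to 80.1 CPM in the others. Gdf15 had 17.9 CPM in library 3 of the knockout with Δ[O] HMGB1 under CCl4, against 3.59 to 5.78 CPM in the others. Btg2 had 76.5 CPM in WT CCl4 library 3, against 38.2 to 44.1 CPM in the others.

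The CCl4 response differed between the knockout with WT HMGB1 and WT by the interaction test for Gdf15 (log2 difference -2.63) and Plk2 (log2 difference -1.42).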

How the results depend on the processing

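Of 74 calls among the 10 genes over 22 comparisons, 59 were kept under every alternative run: 44 of 45 in cells, 0 of 6 in fibrotic and resolving livers and 15 of 23 in CCl4 and MO livers. The kept calls in cells include Gdf15 in each comparison with [SO3] HMGB1, where it could only differ. Those calls say nothing about stability. No called result changed direction. With only the groups compared in the fit, 1 gene was called for [SO3] HMGB1 against BSA in resolving livers and 0 for resolving against fibrotic livers with BSA. Without BSA and [H] fibrotic library 2, an exclusion chosen after seeing the data, 3 were called for resolving against fibrotic livers. For CCl4 against MO in the knockout with Δ[O] HMGB1, 2 were called by DESeq2, 2 with its size factors, 0 with no filter, and 2 with only the groups compared. Causes were not tested.

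Leaving out 1 library at a time gave 0 to 6 calls for resolving against fibrotic livers, 2 to 5 and 0 to 2 for CCl4 against MO in the knockout with WT HMGB1 and with Δ[O] HMGB1, 0 to 1 for Δ[O] against WT HMGB1 under MO, 0 to 2 for the difference between the 2 knockout responses, and 1 to 3 for that between the knockout with WT HMGB1 and WT.

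Replicate numbers were not treated as pairs: deviations of same-numbered libraries correlated over 0.1 in 0 of 18, 14 of 45 and 17 of 42 pairs in the cells, the fibrosis and resolution livers and the CCl4 and MO livers. With the replicate number as a block, 3 genes were called for CCl4 against MO in the knockout with Δ[O] HMGB1. Gdf15 at 10 counts or fewer per group in cells without [SO3] HMGB1 limits its folds.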
